A study of Schizosaccharomyces pombe with 6 samples.

Results

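The genes described here encode the proteasome of the fission yeast *Schizosaccharomyces pombe*, with 3 factors that act on it. They are the probe sets whose platform annotation names a single *S. pombe* gene with a proteasome symbol (*rpn*, *rpt*, *pre* or *pup* followed by a number, leaving out *rpn15*) or one of the symbols *mts2*, *mts4*, *pad1*, *pts1*, *pam1*, *ump1*, *ubp6* and *cut8*. This gave 30 genes out of 2919 named *S. pombe* features: 9 of the core particle, 18 of the regulatory particle (11 of its base and 7 of its lid) and 3 other factors. A feature is a gene, with its probe sets averaged, or a probe set that names several genes. All arrays came from *rae1-167* cells, a temperature-sensitive mutant of the mRNA export factor gene *rae1* in strain background 972, grown in YE4S medium to early-log phase. Total RNA from 3 samples at 25°C was compared with 3 samples of cells at 36°C for 1 h, on 1 Affymetrix yeast array per sample, and both groups carry the same allele. No wild-type array was analysed here, so the effect of the temperature and that of the mutation at that temperature cannot be told apart. The study asked how gene expression in this export mutant changes at 36°C.

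The proteasome degrades proteins that carry ubiquitin chains. Its core particle is a barrel of α rings and β rings whose β1, β2 and β5 subunits carry the proteolytic sites, facing the inner chamber. The regulatory particle caps the barrel: its base holds a ring of AAA ATPases (Rpt1 to Rpt6) that unfold substrates, along with scaffold subunits and ubiquitin receptors, and its lid holds the deubiquitinating subunit Rpn11. In fission yeast most proteasomes lie in the nucleus and at the nuclear envelope, and several subunits are essential for the metaphase-to-anaphase transition.

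The arrays gave a signal intensity for each probe set, to which the authors applied global scaling. The deposited arrays were still not at a common level. The mean of all probe sets after a 2% trim ran from 1246 to 1527 at 25°C and from 968 to 1184 at 36°C. The median signal of the 2919 features lay between 1940 and 2621 on the 25°C arrays and between 1147 and 1579.5 on the 36°C arrays, so the median log2 change of all features was -0.66. Array correlations of log2 signals were 0.987 to 0.997 within 25°C, 0.970 to 0.997 within 36°C and 0.77 to 0.80 across the temperatures. By limma with Benjamini-Hochberg adjustment over all features (adjusted p below 0.05), 354 features were higher at 36°C and 1514 were lower. Each array was hybridised from the same input of total RNA, so the signals are relative to that RNA and do not give the amount of RNA per cell. Of the *S. pombe* control mRNAs that have probe sets at both ends, *srb4*, SPCC338.15 and *ura4* had a lower log2 ratio of 5′ to 3′ signal on all 36°C arrays than on all 25°C arrays (mean differences -1.43, -0.61 and -0.33), and *act1*, *gpd3*, *rip1* and *tfIID* did not. The part of this in the changes given here was not tested.

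Of the 30 genes, 4 rose at 36°C (13.3%, against 12.1% of all features), 10 fell (33.3%, against 51.9%) and 16 did not pass the test. Together 46.7% were called, against 64.0% of all features. The 4 that rose were *pre3*, *rpn9*, *rpn1302* and *ump1*, and all rose by less than 1.5-fold. Of the 10 that fell, 5 fell at least 2-fold (16.7%, against 39.8% of all features): *ubp6*, *rpt1*, *rpt5*, *rpn8* and *pts1*. The other 5 were *rpn3*, *rpt4*, *rpt3*, *cut8* and *pre6*. On the deposited signals the median log2 change of the 30 genes was -0.16, and 23 of them (76.7%, against 32.2% of all features) moved by less than 0.5 on that scale. That share depends on the scaling and was not recounted under the others. After centring each array on its median feature, the core and regulatory particle medians were 0.65 and 0.61. Relative to the median feature, 24 of the 30 genes lay above and 6 below. These contrasts are with features of all signal levels, and the proteasome genes were bright. Of 4 equal bins of features by signal at 25°C, the brightest held 24 of the 30 genes. In that bin the median log2 change of all features was -0.22, with 3.42% higher and 39.7% lower. The share that moved by less than 0.5 was not taken for that bin. Every gene was above background on all 6 arrays, and 7 had at least 1 signal over 10000.

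**Figure D1:**
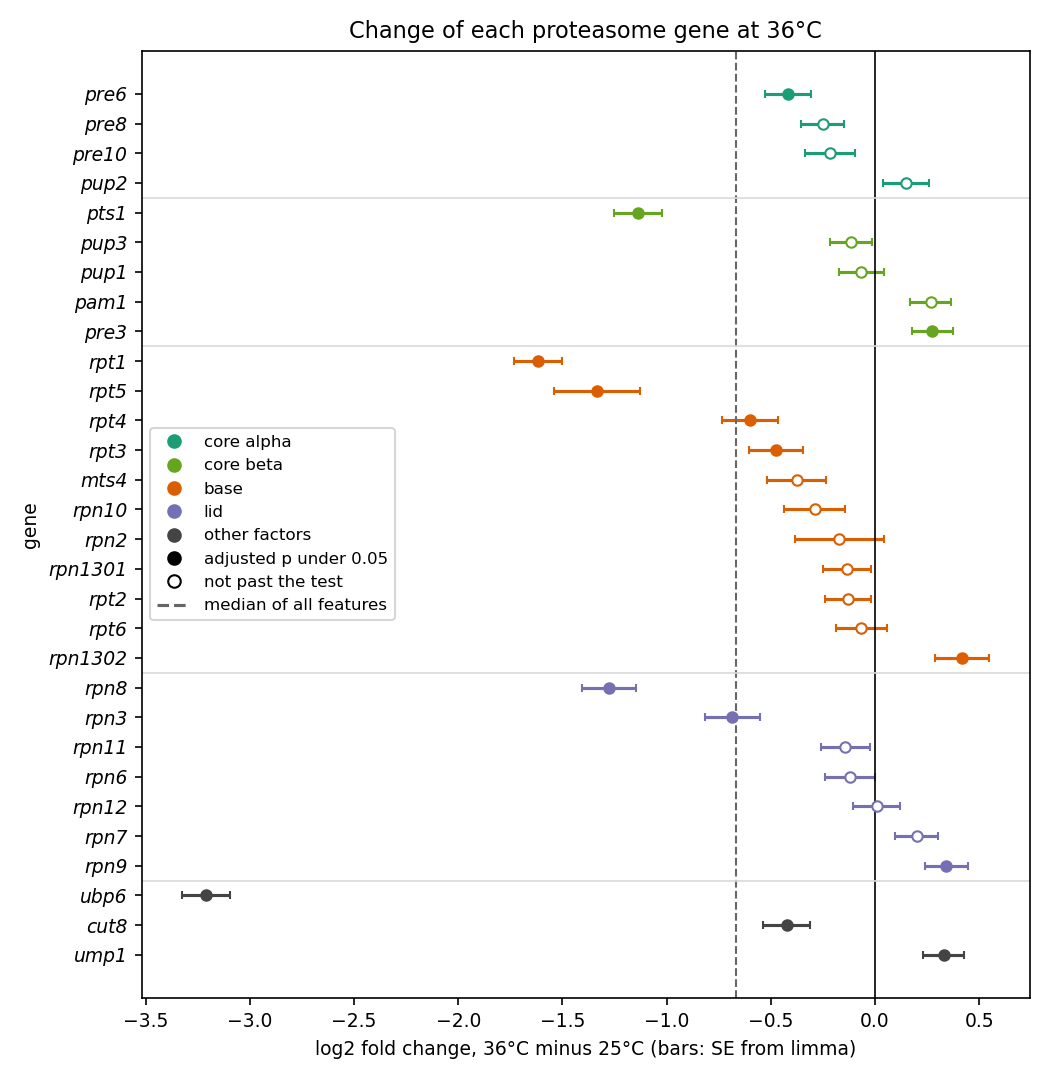
Log2 fold change, 36°C minus 25°C, of each of the 30 proteasome genes (x axis; points are limma estimates, bars are standard errors, 3 arrays per temperature), grouped by subunit class on the y axis. Filled points passed the test at an adjusted p of 0.05; 24 points lie to the right of the dashed line at -0.66, the median of all features, while *ubp6* stands at -3.21.

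These counts depend on how the arrays are set to a common level. Centring each array on its median feature shifted the median change of all features upwards by 0.76 on the log2 scale, and 19 of the 30 genes were then higher and 3 lower, against 39.5% and 34.5% of all features. Quantile normalization, which shifted it by 0.64, left 7 higher and 6 lower, against 30.3% and 33.9%. Scaling to the 27 probe sets of hybridisation controls shifted it by -0.07 and left 1 higher and 12 lower, against 11.5% and 55.0%. With the replicate number as a block 5 genes were higher and 11 lower, against 16.0% and 58.9%. When 1 array was left out, 0 to 2 genes were higher (0 without 25°C replicate 1, 25°C replicate 2 or 36°C replicate 3, 1 without 36°C replicate 2 and 2 without either of the others) and 7 to 11 were lower. Only *ubp6*, *rpt1* and *rpt5* were called in the same direction under all 15 alternative settings tried, and the calls lost elsewhere are given beside each gene.

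**Figure D2:**
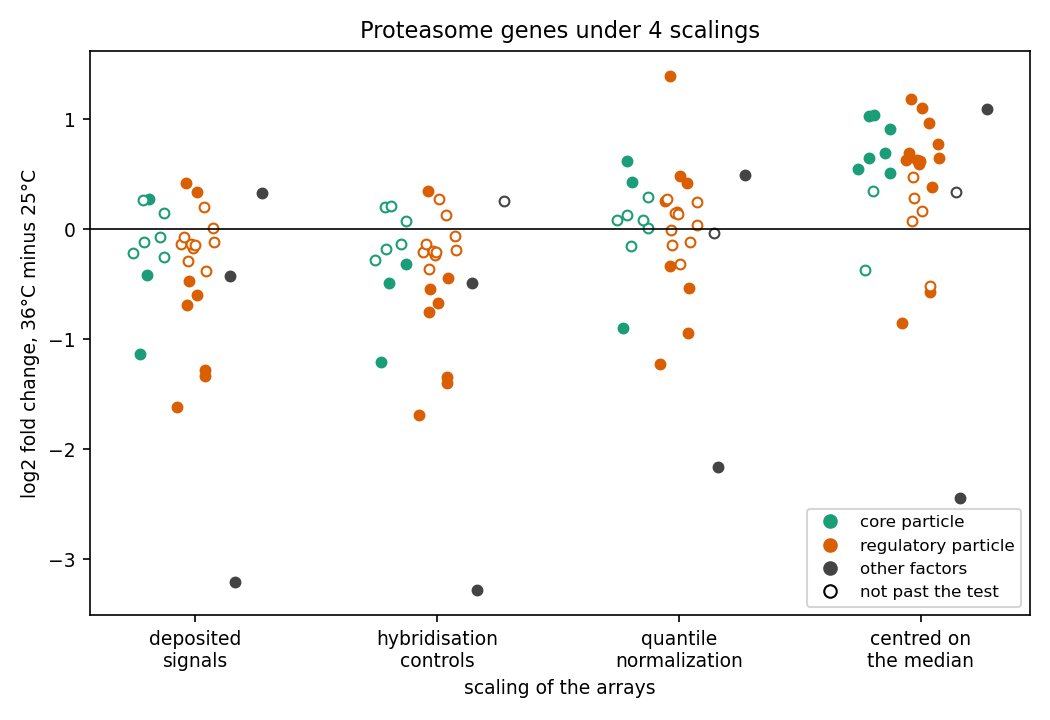
Log2 fold change, 36°C minus 25°C, of each proteasome gene (y axis) under 4 scalings of the arrays (x axis), with core particle, regulatory particle and other factors side by side. Filled points passed the limma test at an adjusted p of 0.05; the genes move upwards together between the deposited signals and centring, and *ubp6* is the lowest point in each column (-3.21 on the deposited signals and -2.45 after centring).

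The α rings gate the entry to the core particle and dock the regulatory particle. Of the 4 α subunit genes measured, 1 fell (*pre6*, 25%, against 51.9% of all features) and none rose (against 12.1%). Their median log2 change was -0.23. After centring 3 of them had positive changes that passed the test and *pre6* did not pass. The α4 gene *pre6* (SPBC106.16) gave signals of 7209.7, 7512 and 8319.9 at 25°C and of 6012, 5495 and 5707 at 36°C. All 36°C values lay below all 25°C values. The mean went from 7681 ± 574 to 5738 ± 259 (SD, n = 3), a log2 change of -0.42 (SE 0.11, limma adjusted p = 0.016). Centring turned the value of *pre6* to 0.34 without passing the test, and quantile normalization left it at -0.15. Its call was also lost when 25°C replicate 2 or 3 or 36°C replicate 2 or 3 was left out, with an adjusted p of up to 0.060.

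The α2 gene *pre8* (SPCC1442.06) had signals of 8367, 8599 and 9042 at 25°C and of 7574, 6897 and 7379 at 36°C. Here too the temperatures did not overlap. The log2 change of *pre8* was -0.25 (SE 0.10, limma adjusted p = 0.073), which passed the test as a fall with scaling to the hybridisation controls, with a trended and robust variance prior and over replicates 2 and 3 alone. After centring *pre8* passed in the other direction (0.51, limma adjusted p = 0.029), and under quantile normalization its value was 0.0091. The α7 gene *pre10* (-0.22, SE 0.12, limma adjusted p = 0.17) and the α5 gene *pup2* (0.15, SE 0.11, limma adjusted p = 0.29) did not pass. On *pup2* all 36°C signals were above all 25°C signals, from 9816 to 11361 against 9070.2 to 9648.

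Among the 5 β subunit genes, 1 fell (*pts1*), 1 rose (*pre3*) and 3 did not pass, with a median log2 change of -0.07. That is 20% in each direction, against 51.9% lower and 12.1% higher over all features. After centring all but *pts1* were higher and none was lower. The 3 catalytic subunits showed 3 outcomes: lower for *pts1*, not past the test for *pup1* and higher for *pre3*. The gene *pts1* (SPAC4A8.13C) encodes β5, the subunit with chymotrypsin-like activity, and had the highest mean signal of the 30 genes at 25°C. Its signals were 9949, 10031 and 11067 at 25°C and 5151, 4456 and 4524 at 36°C. The groups were far apart. *pts1* fell 2.20-fold, from a mean of 10349 ± 623 to 4711 ± 383 (SD, n = 3), with a log2 change of -1.14 (SE 0.12, limma adjusted p = 2.7e-04). Centring was the only setting that ended this call (-0.37, limma adjusted p = 0.11). Of all features, whatever their signal, 36.8% had a lower log2 change. In the brightest bin by signal at 25°C, which held *pts1*, the lower quartile was -0.88.

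The gene *pre3* (SPBC4C3.10C) encodes β1, the subunit with caspase-like activity. Its signals were 9062, 8994 and 9578 at 25°C and 11226, 11213 and 11005 at 36°C. All 36°C signals were above the 25°C ones. *pre3* rose by 0.28 on the log2 scale (SE 0.10, limma adjusted p = 0.045). This call was lost in each of the 6 fits that left out 1 array, with adjusted p between 0.061 and 0.17, with scaling to the hybridisation controls (0.21) and over replicates 2 and 3 alone.

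The remaining β genes did not pass the test. The trypsin-like β2 gene *pup1* changed by -0.07 (SE 0.11, limma adjusted p = 0.63) and the β3 gene *pup3* by -0.11 (SE 0.10, limma adjusted p = 0.36), and both became positive after centring (0.70 and 0.65) and quantile normalization (0.09 and 0.13). The β6 gene *pam1* changed by 0.27 (SE 0.10, limma adjusted p = 0.051). With the replicate number as a block *pam1* passed the test (limma adjusted p = 0.040), as it did after centring, quantile normalization or adding 32 to each signal.

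**Figure D3:**
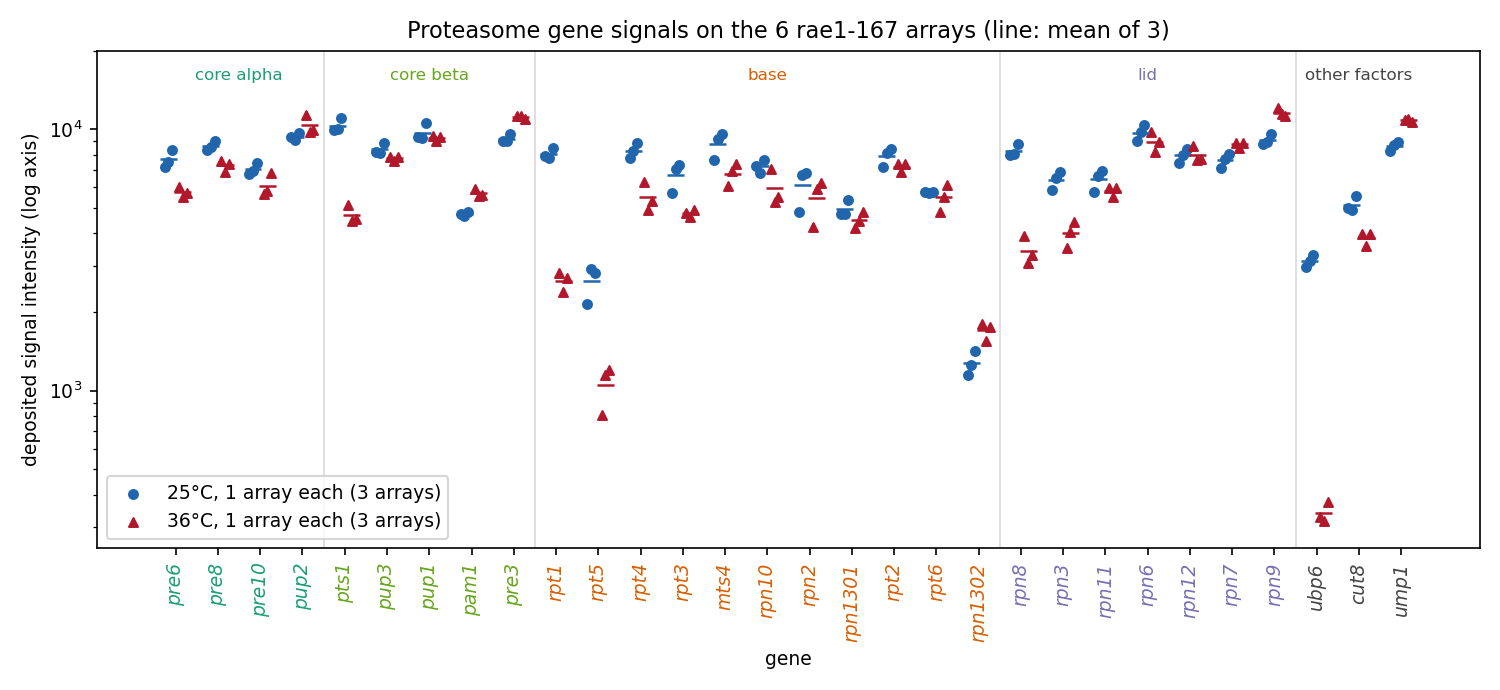
Deposited signal intensity (y axis, log scale) of each of the 30 proteasome genes (x axis) on the 3 arrays at 25°C (circles) and the 3 at 36°C (triangles), with a line at each mean of 3. The widest gaps between the temperatures are those of *ubp6*, *rpt1*, *rpt5*, *rpn8* and *pts1*, while genes such as *rpn12* overlap (means of 7949.7 and 7997).

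Among the 9 core and 18 regulatory particle genes counted here, the largest falls were those of *rpt1* and *rpt5*, both of the ATPase ring of the base. Of its 6 genes, *rpt1*, *rpt5*, *rpt4* and *rpt3* fell (66.7%, against 51.9% of all features), none rose and *rpt2* and *rpt6* did not pass. Their median log2 change was -0.54, against -0.66 over all features. After centring *rpt1* and *rpt5* were lower, *rpt2* and *rpt6* were higher, and *rpt3* and *rpt4* had positive values that did not pass. The gene *rpt1* (SPBC16C6.07C) gave signals of 7920.3, 7768 and 8524 at 25°C and of 2814, 2385 and 2708 at 36°C. The lowest 25°C signal was thus well above the highest 36°C signal. *rpt1* fell 3.07-fold, from 8071 ± 400 to 2636 ± 224 (SD, n = 3), a log2 change of -1.62 (SE 0.12, limma adjusted p = 6.8e-05), and 24.6% of all features had a lower change. In the brightest bin, which held *rpt1*, the lower quartile was -0.88.

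The gene *rpt5* (SPAC3A11.12C) had signals of 2151, 2925 and 2833 at 25°C and of 811, 1150.1 and 1198 at 36°C. Replicate 1 was the lowest at both temperatures. *rpt5* fell 2.52-fold, from 2636 ± 423 to 1053 ± 211 (SD, n = 3), with a log2 change of -1.33 (SE 0.21, limma adjusted p = 0.0017). Its changes within each replicate number ran from -1.41 to -1.24.

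The gene *rpt4* (SPCC1682.16) had signals of 7785, 8279 and 8837 at 25°C and of 6311, 4898 and 5309.6 at 36°C. The groups did not overlap, with 36°C replicate 1 nearest to the 25°C values. The log2 change of *rpt4* was -0.60 (SE 0.13, limma adjusted p = 0.0085), close to the median of all features and below that of its brightest bin, -0.22. It kept its call without any 1 array, and lost it under quantile normalization (-0.32) and centring (0.16).

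The gene *rpt3* (SPCC576.10C) had signals of 5706, 7036 and 7284 at 25°C and of 4786, 4636 and 4914 at 36°C. The 36°C arrays lay close together below the 25°C ones. The change of *rpt3* was -0.47 on the log2 scale (SE 0.13, limma adjusted p = 0.019). It lost its call under quantile normalization (-0.14) and centring (0.29) and without 25°C replicate 2, 25°C replicate 3 or 36°C replicate 2, with an adjusted p of up to 0.082. For *rpt2* and *rpt6* the temperatures overlapped, and the log2 changes were -0.13 (SE 0.11, limma adjusted p = 0.35) and -0.07 (SE 0.12, limma adjusted p = 0.67). The 95% interval reached from -0.40 to 0.14 for *rpt2* and from -0.37 to 0.23 for *rpt6*.

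The other 5 genes of the base encode the scaffolds Rpn1 (*mts4*) and Rpn2, and the ubiquitin receptors Rpn10 and Rpn13, the latter from the paralogues *rpn1301* and *rpn1302*. None fell on the deposited signals (against 51.9% of all features), 1 rose (20%, against 12.1%) and their median log2 change was -0.17. After centring all but *rpn10* were higher. The gene *rpn1302* (SPCC16A11.16C) had signals of 1151, 1252 and 1421 at 25°C and of 1803, 1543 and 1758 at 36°C. All 36°C signals were above all 25°C signals, and its mean at 25°C, 1275 ± 137, was the lowest of the 30 genes. The mean at 36°C was 1701 ± 139 (SD, n = 3) and the log2 change of *rpn1302* was 0.42 (SE 0.13, limma adjusted p = 0.030), the highest of the 30. Its call was lost without 25°C replicate 1 or 2 or 36°C replicate 1 or 3, with an adjusted p of up to 0.10, with the trended and robust prior and over replicates 2 and 3 alone, and quantile normalization raised the value to 1.39.

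Its paralogue *rpn1301* changed by -0.13 (SE 0.11, limma adjusted p = 0.35), with overlapping groups. Besides centring, *rpn1301* passed as a rise under quantile normalization (0.26, limma adjusted p = 0.0499). For *mts4*, signals at 36°C were below those at 25°C on all arrays, and the log2 change of -0.38 (SE 0.14, limma adjusted p = 0.054) passed with the replicate number as a block (limma adjusted p = 0.012). It also passed as a fall with scaling to the hybridisation controls, 32 added, the trended and robust prior, without 25°C replicate 1 and over replicates 2 and 3 alone (adjusted p of up to 0.049), and as a rise after centring (0.39, limma adjusted p = 0.023). For *rpn10* the signals of replicate 1 were close at both temperatures (7259 and 7081) and the log2 change was -0.29 (SE 0.15, limma adjusted p = 0.13). Without 36°C replicate 1, *rpn10* passed the test (limma adjusted p = 0.017), as it did over replicates 2 and 3 alone (limma adjusted p = 0.0090). The gene *rpn2* changed by -0.17 (SE 0.22, limma adjusted p = 0.53), and its value was 0.01 without 36°C replicate 1.

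Among the 7 lid genes, 2 fell (*rpn8* and *rpn3*), 1 rose (*rpn9*) and 4 did not pass, with a median log2 change of -0.12. The shares were 28.6% lower and 14.3% higher, against 51.9% and 12.1% of all features. The symbol rule did not take in *dss1*, the gene of the lid subunit Rpn15, which fell (-1.47) and is given further below. After centring *rpn6*, *rpn7*, *rpn9*, *rpn11* and *rpn12* were higher and none was lower. Rpn8 is the catalytically inactive partner of the deubiquitinase Rpn11. The gene *rpn8* (SPCC1682.10) had signals of 7984, 8039.5 and 8770.4 at 25°C and of 3909, 3074 and 3300.1 at 36°C. The groups were separated on every array. *rpn8* fell 2.42-fold, from 8265 ± 439 to 3428 ± 432 (SD, n = 3), a log2 change of -1.28 (SE 0.13, limma adjusted p = 2.7e-04), and centring was the only setting that ended the call (-0.51, limma adjusted p = 0.054). For *rpn11* itself the groups overlapped and the log2 change was -0.14 (SE 0.12, limma adjusted p = 0.34).

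Rpn3, Rpn6, Rpn7, Rpn9 and Rpn12 are scaffold subunits of the lid. The gene *rpn3* (SPBC119.01) had signals of 5848, 6528 and 6858 at 25°C and of 3520.5, 4064 and 4404 at 36°C. The groups did not overlap. The log2 change of *rpn3* was -0.68 (SE 0.13, limma adjusted p = 0.0045), next to the median of all features and below that of its brightest bin, -0.22. After centring the change of *rpn3* was 0.08.

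The gene *rpn9* (SPAC607.05) had signals of 8819.7, 8975 and 9610.2 at 25°C and of 12052, 11440.0 and 11255 at 36°C. All 36°C signals exceeded 10000 and all 25°C signals were below it. The mean of *rpn9* went from 9135 ± 419 to 11582 ± 417 (SD, n = 3), the highest 36°C mean of the 30 genes, with a log2 change of 0.34 (SE 0.10, limma adjusted p = 0.025). Its call was lost without 25°C replicate 1 or 2 or 36°C replicate 2 or 3 (adjusted p of up to 0.11) and with scaling to the hybridisation controls (0.28). For *rpn7* all 36°C signals were also above those at 25°C, with a log2 change of 0.20 (SE 0.10, limma adjusted p = 0.14), whereas *rpn6* (-0.12, SE 0.12, limma adjusted p = 0.43) and *rpn12* (0.01, SE 0.11, limma adjusted p = 0.96) overlapped. Besides centring, *rpn7* passed as a rise under quantile normalization (0.42, limma adjusted p = 0.0052) and with the trended and robust prior (limma adjusted p = 0.046). The paralogues *rpn501* and *rpn502*, which encode Rpn5, share 1 probe set that names both and so are not among the 30 genes. That probe set gave 11704, 11184 and 12016 at 25°C and 11248, 10464 and 10330.3 at 36°C, a log2 change of -0.12 (SE 0.10, limma adjusted p = 0.33).

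All 3 other factors passed the test, as did 64.0% of all features, with *ubp6* and *cut8* lower and *ump1* higher. The gene *ubp6* (SPAC6G9.08) encodes the deubiquitinase that binds the base and trims ubiquitin from substrates. Its signals were 2980.1, 3138 and 3301 at 25°C and 329, 318 and 374 at 36°C. The 36°C signals were the lowest of any of the 30 genes. *ubp6* fell 9.25-fold, from 3139.9 ± 161 to 340.2 ± 29.6 (SD, n = 3), a log2 change of -3.21 (SE 0.12, limma adjusted p = 1.8e-05), and 4.11% of all features had a lower change. It was -2.45 after centring, and the changes within each replicate number ran from -3.30 to -3.14.

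The gene *cut8* (SPAC17C9.13C) encodes the short-lived factor that tethers the fission yeast proteasome to the nuclear envelope. Its signals were 4993, 4906 and 5564 at 25°C and 3978, 3571 and 3976 at 36°C. The groups did not overlap. *cut8* fell by 0.42 on the log2 scale (SE 0.11, limma adjusted p = 0.016), and the call was lost without 25°C replicate 2 or 3 or 36°C replicate 2 (adjusted p of up to 0.059), under quantile normalization (-0.03) and after centring (0.34).

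The gene *ump1* (SPCC14G10.03C) encodes the chaperone that is enclosed in the maturing core particle and is degraded as its first substrate. Its signals were 8285, 8682 and 8914 at 25°C and 10869, 10973 and 10656 at 36°C. All 36°C signals were above 10000 and none at 25°C was. *ump1* rose by 0.33 on the log2 scale (SE 0.10, limma adjusted p = 0.025). The call was lost in 5 of the 6 fits that left out 1 array, all but the one without 36°C replicate 1 (adjusted p of up to 0.097), and with scaling to the hybridisation controls (0.26).

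Core and regulatory particle genes had median log2 changes of -0.11 and -0.16, a difference of 0.04. Under quantile normalization the difference was -0.0054. On the deposited signals the core median was the higher within each replicate number, by 0.12, 0.16 and 0.05 in replicates 1, 2 and 3 (SD 0.057). These values take same-numbered arrays as pairs, which the labels do not state. They are another statistic than the fitted difference of 0.04, so their SD is not its error. When 1 array was left out the difference ran from 9.1e-04 (without 25°C replicate 2) to 0.12. Means over genes were -0.17 and -0.36, a difference of 0.19. In the core 1 gene rose (11.1%) and 2 fell (22.2%) out of 9, and in the regulatory particle 2 rose (11.1%) and 6 fell (33.3%) out of 18, against 12.1% and 51.9% of all features. The 18 do not include the lid gene *dss1*, which the symbol rule did not take in and which fell (log2 change -1.47). The list was chosen with results of these arrays known, so no test between the particles was made. The core genes ranged from -1.14 (*pts1*) to 0.28 (*pre3*) and the regulatory particle genes from -1.62 (*rpt1*) to 0.42 (*rpn1302*). The median of all features was -0.67, -0.67 and -0.60 in the 3 replicates, below the median of both particles in each (core -0.07, -0.10 and -0.17, regulatory particle -0.18, -0.26 and -0.22). On each array the median core gene lay above the median feature, by 1.79 to 2.11 on the log2 scale at 25°C and by 2.22 to 2.72 at 36°C, and the median regulatory particle gene by 1.58 to 1.89 and by 1.86 to 2.23.

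Without regard to the test, all 3 arrays at 36°C were below all 3 at 25°C for 13 of the 30 genes (43.3%, against 56.4% of all features), and above them for 7 (23.3%, against 15.0%). Of these, *pre8*, *pup3* and *mts4* were below and *pup2*, *pam1* and *rpn7* above without passing the test. The 16 genes that did not pass had log2 changes of -0.38 to 0.27, and their 95% intervals reached from -0.72 to 0.50. For 3 of them (*pre8*, *pam1* and *mts4*) the unadjusted limma p was below 0.05.

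The proteasome genes were among the brightest on the arrays. All features were split into 4 bins of equal size by their mean log2 signal at 25°C. The brightest bin held 24 of the 30 genes, the next held 5 (*pam1*, *rpt5*, *rpn1301*, *ubp6* and *cut8*), the next 1 (*rpn1302*) and the dimmest 0. From the brightest to the dimmest bin the median log2 change of all features was -0.22, -0.90, -1.03 and -0.67, so the median of the 30 genes, -0.16, was close to that of features of similar signal. In the brightest bin 3.42% of features rose and 39.7% fell. The part of the signal level in the small changes was not tested. Spearman's rho of the signal at 25°C with the log2 change was 0.05 across 2919 features, which share the same arrays, and 0.17 over the 30 genes. Such a low rho over all features says only that the relation did not run in one direction, since the medians of the 4 bins differed.

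**Figure D4:**
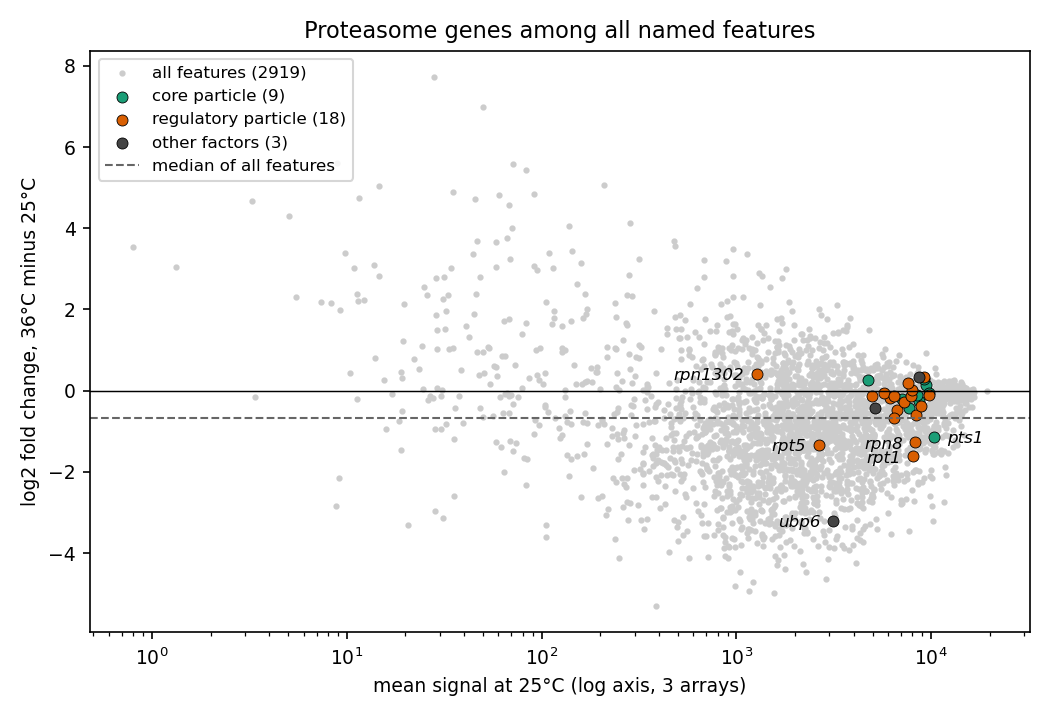
Mean signal at 25°C (x axis, log scale, 3 arrays) against the log2 fold change, 36°C minus 25°C (y axis), for all 2919 features in grey, with core particle, regulatory particle and other factors in colour. Of the 30 proteasome genes, 24 lie in the brightest of 4 bins of features, and *ubp6* lies far below the dashed median of -0.66.

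Longer proteasome genes had lower log2 changes. Gene length, taken from the RefSeq gene table and counting introns and untranslated regions, had a Spearman's rho with the log2 change of -0.53 across the 30 genes, -0.40 across the 9 core genes, -0.56 across the 18 regulatory particle genes and -0.49 without *ubp6*. Across the 2896 features with a length rho was -0.23. The median length was 1238 bases in the core, 1625.5 in the regulatory particle and 1878 over all features. These are descriptions across genes that share arrays, and genes are not independent replicates.

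Outside the 30 genes, 6 lists of the ubiquitin-proteasome pathway were read against the 12.1% of all features that rose and the 51.9% that fell. Of 13 genes for E1 and E2 enzymes, which activate and conjugate ubiquitin, 2 rose (15.4%) and 4 fell (30.8%), with a median log2 change of 0.02. *ubc6*, which encodes an E2 of the endoplasmic reticulum membrane, rose from 1868 ± 219 to 8435 ± 711 (SD, n = 3; log2 change 2.18, SE 0.14, limma adjusted p = 4.1e-05). *ubc8* also rose (1.41, SE 0.12, limma adjusted p = 1.3e-04) and *ubc16* fell (-2.25, SE 0.23, limma adjusted p = 3.0e-04). None of the 3 ubiquitin genes measured passed the limma test, and 0 had an unadjusted p below 0.05, with a median log2 change of -0.0015 and mean signals of 14023 to 15801, near the top of the scale.

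A list of 14 genes was drawn up from general knowledge for Cdc48, the ATPase that extracts ubiquitylated proteins, its cofactors and the shuttle receptors. Of these genes, 5 rose and 5 fell (35.7% each, with 71.4% called against 64.0% of all features, and a median of -0.25). *ubx4*, for a UBX-domain protein, rose (1.79, SE 0.11, limma adjusted p = 3.8e-05), whereas *npl4*, for the Cdc48 cofactor, fell (-1.81, SE 0.22, limma adjusted p = 5.4e-04). *ucp3*, whose role under this heading was not checked, fell the most of the list (-3.81, SE 0.46, limma adjusted p = 5.7e-04). *cdc48* itself changed by 0.04 (SE 0.22, limma adjusted p = 0.90). Of 19 deubiquitinating enzyme genes other than *ubp6*, 2 rose (10.5%) and 8 fell (42.1%), against 12.1% and 51.9% of all features (median -0.44). The largest falls were those of *ubp13* (-2.80, SE 0.19, limma adjusted p = 6.2e-05), which RefSeq now lists as *pan2*, a deadenylase subunit, *ubp5* (-1.57, SE 0.27, limma adjusted p = 0.0027) and *otu2* (-1.54, SE 0.21, limma adjusted p = 0.0011).

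Of 8 ubiquitin ligase genes of protein quality control, 3 fell (37.5%, against 51.9% of all features) and none rose (median -0.96). Those that fell were *ptr1* (-1.72, SE 0.32, limma adjusted p = 0.0039), *ubr11* (-1.52, SE 0.30, limma adjusted p = 0.0049) and *doa10* (-0.94, SE 0.28, limma adjusted p = 0.025), the last losing its call after centring and without 25°C replicate 2, 25°C replicate 3 or 36°C replicate 2. The list of other proteasome assembly and binding factors had 3 genes measured, and all fell. *ecm29*, for a protein that binds both particles, fell from 3912 ± 711 to 827 ± 233 (SD, n = 3; log2 change -2.26, SE 0.25, limma adjusted p = 4.0e-04). *dss1*, which encodes the lid subunit Rpn15 that also acts in mRNA export, fell from 2284 ± 282 to 843 ± 235 (SD, n = 3; log2 change -1.47, SE 0.24, limma adjusted p = 0.0019), and lost the call under quantile normalization (-0.56). The remaining gene, *pcu4* (-1.83, SE 0.20, limma adjusted p = 3.5e-04), encodes a cullin and is not a proteasome factor.

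**Figure D5:**
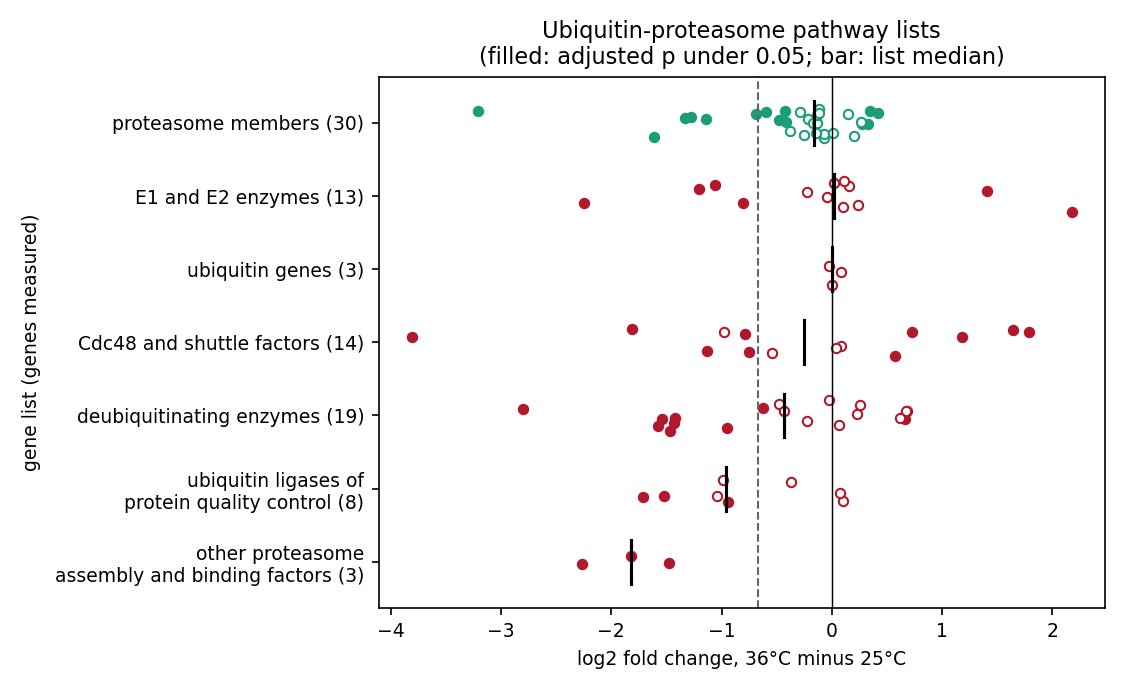
Log2 fold change, 36°C minus 25°C (x axis), of the 30 proteasome genes and of the genes measured in 6 lists of the ubiquitin-proteasome pathway (y axis, with the number of genes). Filled points passed the limma test at an adjusted p of 0.05 bars are list medians and the dashed line is the median of all features, -0.66; the proteasome genes cluster near -0.16, with *ubp6* apart, while the Cdc48 list spreads from -3.81 to 1.79.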

How the data were processed

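Total RNA of *rae1-167* cells was labelled with biotin and hybridised to Affymetrix yeast arrays, 3 at 25°C and 3 at 36°C. The deposited values are signal intensities on a linear scale, which the authors made with GCOS at default settings and global scaling of each array. The table held 10928 probe sets, of which 2917 name 1 *S. pombe* gene and 20 several; probe sets of the same gene (14 genes) were averaged as log2 values. No further scaling was applied, and 4 values of 0 were set to the lowest positive signal, 0.1. Depth does not apply to arrays: the number of arrays limits the precision, and where samples are not stated to be separate cultures p-values measure the spread between these samples, which may be technical. Background was the 90th percentile of *S. cerevisiae* probe sets on each array (14.0 to 21.3).

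A linear model per feature was fitted to the log2 signals with temperature as its factor, using lmFit and eBayes of limma 3.58.1 under R 4.3.3, and two-sided p-values were adjusted by Benjamini-Hochberg over 2919 features. On simulated data with 200 changed features, 23.9% of 1.5-fold, 71.6% of 2-fold and 97.0% of 4-fold changes were recovered, with 9 false calls. The simulated noise was independent between arrays, and in the real data 64.0% of features were called. These rates therefore need not hold for the calls given here. The main fit had no replicate term and so treated the samples as unpaired. Only the changes within each replicate number and the replicate block took same-numbered samples as pairs. Deviations from the group means of same-numbered arrays correlated at 0.54, 0.45 and 0.43, and the labels do not state a pairing. Across numbers, 25°C replicate 2 correlated with 36°C replicate 3 at 0.48 and 25°C replicate 3 with 36°C replicate 2 at 0.21, so the numbers 2 and 3 were not told apart by this check. In the labels the descriptions of replicate 1 are of another kind than those of replicates 2 and 3, which is why the latter were also fitted alone. Alternatives were centring, quantile normalization, scaling to hybridisation controls, 32 added, dim or less specific probe sets left out, another variance prior, the replicate block, each array left out and replicates 2 and 3 alone. Splitting features by signal was added after seeing the data.

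Array values are given for genes past the test and the 2 of largest change in each class; from each pathway list, up to 3 genes past the test with the largest change. Genes and lists were chosen with earlier results of these data known. Probe sets naming only *pre1*, *pre4*, *pre5* or *pre9* were not analysed here. Gene length stood in for protein length; sequences, introns and promoters were not analysed here.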

Additional observations from a re-analysis of the deposited data

Results flagged for a closer look

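The arrays also carry probe sets for *Saccharomyces cerevisiae*, which are not meant for this RNA. Of 33 that name a proteasome gene of that species, 27 were above background (the 90th percentile of all *S. cerevisiae* probe sets of the array) on no array and 4 on 1 or 2 arrays. The *RPT6* probe set was above it on 5 of the 6 arrays, with signals of 29.5, 26.6 and 13.4 at 25°C and 18.4, 23.7 and 21.5 at 36°C. The *RPN1* probe set was above it on 3 arrays, all at 25°C, with signals of 16.6, 19.5 and 21.6. The highest of these signals, 29.5, compares with 317.6 as the lowest signal of any of the 30 *S. pombe* genes.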

How the results depend on the processing

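Centring each array on its median left 19 of the 30 genes higher and 3 lower (core 7 and 0, regulatory particle 11 and 2, all features 1154 and 1007). Quantile normalization gave 7 higher and 6 lower (core 2 and 1, regulatory particle 4 higher, all features 883 and 990). Scaling to the hybridisation controls left 1 higher (core 0, regulatory particle 1), and replicates 2 and 3 alone 2 (core 0, regulatory particle 1). Adding 32 gave 2 core genes higher. Core and regulatory particle medians were 0.65 and 0.61 after centring, 0.086 and 0.091 with quantile normalization and -0.18 and -0.22 with hybridisation controls. Replicates 2 and 3 alone gave -0.24 for the regulatory particle and a difference of 0.10. Means over genes were -0.17 and -0.36, a difference of 0.19. Centring reversed *pre6* (0.34), *pre8* (0.51), *pre10* (0.55), *pup3* (0.65), *pup1* (0.70), *rpt4* (0.16), *rpt3* (0.29), *mts4* (0.39), *rpn10* (0.47), *rpn2* (0.59), *rpn1301* (0.63), *rpt2* (0.63), *rpt6* (0.70), *rpn3* (0.078), *rpn11* (0.62), *rpn6* (0.64) and *cut8* (0.34). Quantile normalization reversed *pre8* (0.0091), *pre10* (0.083), *pup3* (0.13), *pup1* (0.086), *rpn2* (0.16), *rpn1301* (0.26), *rpt2* (0.15), *rpt6* (0.27), *rpn11* (0.14) and *rpn6* (0.040). Other reversals were *rpt6* (0.021) and *rpn12* (-0.10) over replicates 2 and 3 and *rpn12* with hybridisation controls (-0.060). Without 1 array, *rpn2* ran from -0.33 to 0.0052, *rpt6* from -0.15 to 0.021 and *rpn12* from -0.051 to 0.048. The cause of these changes was not tested.

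Leaving out 1 array gave 0 to 2 genes higher and 7 to 11 lower, 0 core genes higher and 1 to 2 lower, 0 to 2 regulatory particle genes higher and 5 to 7 lower, and 275 to 455 of all features higher and 1307 to 1551 lower. The core median ran from -0.14 to -0.07, the regulatory particle median from -0.25 to -0.086 and their difference from 9.1e-04 to 0.12. Of 180 gene values without 1 array, 145 kept direction and side of the threshold, 29 lost the call, 2 gained one and 4 reversed. For the named pathway genes, 218 of 225 values over all settings kept direction and call, 7 lost the call and 0 reversed. Not every one of these lost calls is listed above by gene. With the replicate number as a block 5 genes were higher and 11 lower (core 2 higher); the block changed the calls of *pam1* and *mts4* and no other call among the 30 genes.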
